A study of Saccharomyces cerevisiae with 4 samples.

Results

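Heat shock was measured here as the difference between 2 of the 4 libraries of the series. Both came from budding yeast, Saccharomyces cerevisiae, of strain DPY438 with the genotype label Hsf1-AA. In 1 library the cells were at 30 °C without rapamycin, and in the other they had been at 39 °C for 10 min, also without rapamycin. The other 2 libraries held the same temperatures with 1 µM rapamycin for 45 min, the drug that draws Hsf1 away from the nucleus in an anchor-away strain, and they serve here only as a second reading of heat. Standard anchor-away strains lack FPR1, carry a rapamycin-resistant TOR1 allele and have a ribosomal protein tagged as the anchor. The labels do not give these alleles for DPY438, and FPR1 was listed at 0 in all 4 libraries, 1 of 766 features of which that is true. Most mating-type markers fitted a MATalpha strain, with SAG1 at 442 and STE3 at 437.5 in the 30 °C library and MFA1 at 1 read, on which the labels say nothing. In that library 5 MATalpha markers together took 0.158% of coding reads and 6 MATa markers 0.00614%. Of the MATalpha markers 1 was at 0 in both libraries without rapamycin, and of the MATa markers 1 was at least 4-fold higher at 39 °C. Growth medium, growth phase, the number of cultures and the order of drug and heat are not given in the labels, and these RNA counts do not measure where Hsf1 was in the cell.

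Every group was 1 library, so no difference has a replicate check, and the values compare these libraries. Values are normalised read counts as deposited, in which 1 read was worth 1.43 at 30 °C and 1.499 at 39 °C. The libraries held 1561620 reads at 30 °C and 2026880 at 39 °C. Ratios are log2 of the value plus 1, heat shock over 30 °C, and a fold is 2 to the power of that ratio. Of the 7126 features listed, the 5642 whose values over all 4 libraries averaged 5 or more were compared. The interval after a fold is the 95% exact interval of the read ratio and covers counting error only; without molecular identifiers, reads need not be separate molecules. A feature is called past 2-fold, 4-fold or 10-fold when its ratio reached that size, a rule of size and not a test. How reads in overlapping or repeated genes were counted, and whether strand was used, is not stated in the labels, so overlapping genes and near-identical paralogs such as SSA1 and SSA2, HSP82 and HSC82, HXT6 and HXT7 and most ribosomal protein pairs are uncertain as single genes. In a bulk culture, a change in each cell and a change in the share of cells that express a gene cannot be told apart.

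Heat unfolds proteins in the cytosol and nucleus. Free chaperones are drawn to them, and Hsf1, which Hsp70 holds inactive in unstressed cells, then activates genes for chaperones through heat shock elements, arrays of GAA units in alternating orientation. A second arm, common to many stresses, runs through the zinc finger factors Msn2 and Msn4, which protein kinase A keeps out of the nucleus in rich conditions and which bind the stress response element AGGGG. At the same time, growth genes are shut down: those for ribosome assembly share the promoter motifs known as PAC and RRPE and are repressed when TOR and protein kinase A signalling falls.

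In these libraries 1115 of the 5642 features (19.8%) were past 2-fold higher at 39 °C and 1089 (19.3%) were past 2-fold lower. At least 4-fold higher were 443 (7.85%), and past 4-fold lower 361 (6.40%). The ratios spread almost evenly about a median of 0.02, with quartiles of -0.76 and 0.78 and with 5% of features below -2.22 and 5% above 2.51. The higher tail reached further, with 163 features past 10-fold higher and 81 past 10-fold lower. The even split depends on the scaling. Dividing each library by its total shifts the median of all features by -0.44 and leaves 723 features past 2-fold higher and 1701 past 2-fold lower. The members of the higher class made up 50.6% of the features past 2-fold on the deposited scale and 29.8% on library totals. Ratios are therefore best read against the median of all features. Of the 40 gene lists described here with a median above 0, 14 had a median of 0 or below on library totals.

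**Figure D1:**
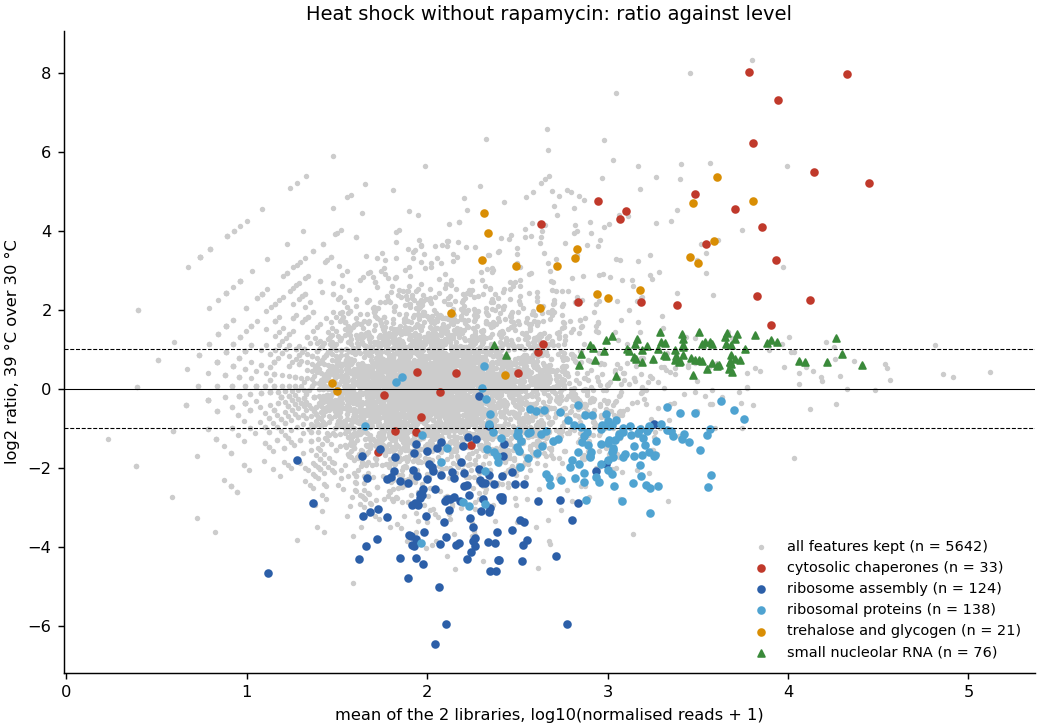
Log2 ratio of 39 °C over 30 °C (vertical axis) against the mean of both libraries as log10 of normalised reads plus 1 (horizontal axis), 1 point for each of the 5642 features kept, from 1 library a side, with dashed lines at 2-fold. Coloured are 33 cytosolic chaperone genes, 124 ribosome assembly genes, 138 ribosomal protein genes, 21 trehalose and glycogen genes and 76 small nucleolar RNAs; assembly genes lie below 0, and small nucleolar RNAs lie in a narrow band above it.

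In the heat shock library fewer genes held more of the reads. The 10 coding genes with most reads took 10.4% of coding reads at 30 °C and 15.1% at 39 °C, and the top 100 took 30.1% and 42.6%. The 424 coding genes that were past 4-fold higher, chosen for that, went from 3.41% to 35.2% of coding reads, and the 354 that were past 4-fold lower from 10.9% to 1.40%. Of the 20 most abundant coding genes per kilobase of exon, 6 were the same in the 2 libraries. At 30 °C the per-kilobase levels were led by CCW12, a cell wall mannoprotein gene (18241), the pyruvate decarboxylase gene PDC1 (18178) and the glycolytic gene TDH3 (17294), and several ribosomal protein genes, RPL39 first, stood in the top 20. At 39 °C the leaders per kilobase were HSP12, a membrane-associated hydrophilin gene (22080, from 416), TMA10 (21932, from 82.2), the Hsp70 gene SSA4 (21829, from 87.5) and TDH3 (21589). No ribosomal protein gene remained in the top 20 at 39 °C. MBF1, a coactivator gene, was also there, at 14026 from 1301 per kilobase. Genes named in this paragraph for their level alone were chosen after their values were seen.

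The promoters of the genes that moved most differed in sequence. The 500 bases before each start codon were searched on both strands for each motif separately, so that matches of different motifs may share bases, in 5986 RefSeq genes of the R64 assembly, the assembly that sacCer3 names. Of these windows, 2332 overlap the window of another gene. The heat shock element was searched in a strict form, GAA, 2 free bases, TTC, 2 free bases and GAA, or its reverse complement, and was found in 1.49% of all promoters. It stood in 6.37% of the promoters of genes past 4-fold higher (27 of 424) and in 9.09% of those past 10-fold higher. The stretches below come from the 3 genes of highest ratio that had such a match, with the overlapping matches in capitals. They are given 5′ to 3′ on the strand of the gene, from R64.
BTN2: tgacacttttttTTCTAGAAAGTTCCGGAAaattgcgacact
HSP42: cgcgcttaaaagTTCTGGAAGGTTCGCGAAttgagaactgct
HSP78: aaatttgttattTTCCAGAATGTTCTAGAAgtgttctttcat
The BTN2 stretch is chrVII:772098-772139 on the plus strand and begins 356 bases before the start codon, that of HSP42 is chrIV:806366-806407 on the plus strand (255 bases before), and that of HSP78 is chrIV:974461-974502 on the minus strand (259 bases before). HSP42 and HSP78 also hold 3 stress response elements in the same window, and BTN2 none. Each stretch holds 2 overlapping matches, that is, a run of GAA units in alternating orientation, each 2 bases from the next. BTN2, whose product gathers misfolded proteins into deposits, went from 110.1 to 17462. HSP42, a small heat shock protein gene, went from 169 to 12666, and HSP78, the mitochondrial disaggregase gene, from 387 to 19368.

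The stress response element, AGGGG or CCCCT, was found in 34.1% of all promoters. It stood in 70.8% of the promoters of genes past 4-fold higher (300 of 424), in 49.2% of those between 2-fold and 4-fold higher and in 30.6% of those that moved less than 2-fold. The share was 25.8% among genes between 2-fold and 4-fold lower and 19.5% among those past 4-fold lower. At least 2 copies were present in 36.6% of the genes past 4-fold higher against 8.14% of all promoters. The 3 genes of highest ratio with this motif and no match to the strict heat shock element are shown next, with the copy used in capitals.
HSP26: ggttattccctcCCCCTtatgcgtccaaa
TMA10: ttgagccaccccCCCCTcaggagtaaatt
SSA4: attcaataagcaAGGGGggaagctcctta
They lie at chrII:381692-381720 on the plus strand (HSP26), chrXII:783709-783737 on the minus strand (TMA10) and chrV:364398-364426 on the plus strand (SSA4), from 338, 350 and 191 bases before the start codon. HSP26, the other small heat shock protein gene, went from 45.8 to 12044 and TMA10, a ribosome-associated stress protein gene, from 21.4 to 5724. SSA4 went from 169 to 42107. The absence of a match means only that these letters are not in the window.

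Genes at the lower end shared 2 other motifs. PAC, GATGAG or CTCATC, stood in 28.3% of all promoters, in 62.1% of those of genes past 4-fold lower (220 of 354) and in 77.2% of those past 10-fold lower. RRPE, searched as AAAATTTT, which is its own reverse complement, stood in 12.4% of all promoters, in 49.7% of those past 4-fold lower (176 of 354) and in 65.8% of those past 10-fold lower. The 3 genes of lowest ratio show both motifs, in capitals, with PAC as GATGAG or CTCATC.
RPF2: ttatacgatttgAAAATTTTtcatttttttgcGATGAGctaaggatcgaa
REI1: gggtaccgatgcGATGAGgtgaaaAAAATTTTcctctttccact
NSR1: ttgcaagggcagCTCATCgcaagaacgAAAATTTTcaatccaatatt
These stretches are chrXI:592643-592692 on the minus strand (RPF2), chrII:739732-739775 on the plus strand (REI1) and chrVII:807809-807855 on the minus strand (NSR1). RPF2, which brings the 5S particle to the large subunit, went from 217 to 1.5, that is, from 152 reads to 1. REI1, a cytoplasmic recycling factor of the large subunit, went from 249 to 3, and NSR1, the yeast nucleolin gene, from 1169 to 18.0. The 355 genes with both motifs had a median ratio of -1.54, and 215 of them (60.6%) were past 2-fold lower. The 3534 genes with neither had a median of 0.13, and 13.7% of them were past 2-fold lower. With PAC alone the median of 1183 genes was -0.14 and 278 of them (23.5%) were past 2-fold lower. With RRPE alone the median of 359 genes was -0.35 and 98 (27.3%) were past 2-fold lower. The share past 2-fold lower was thus highest with both motifs, although 483 of the lower genes had neither.

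**Figure D2:**
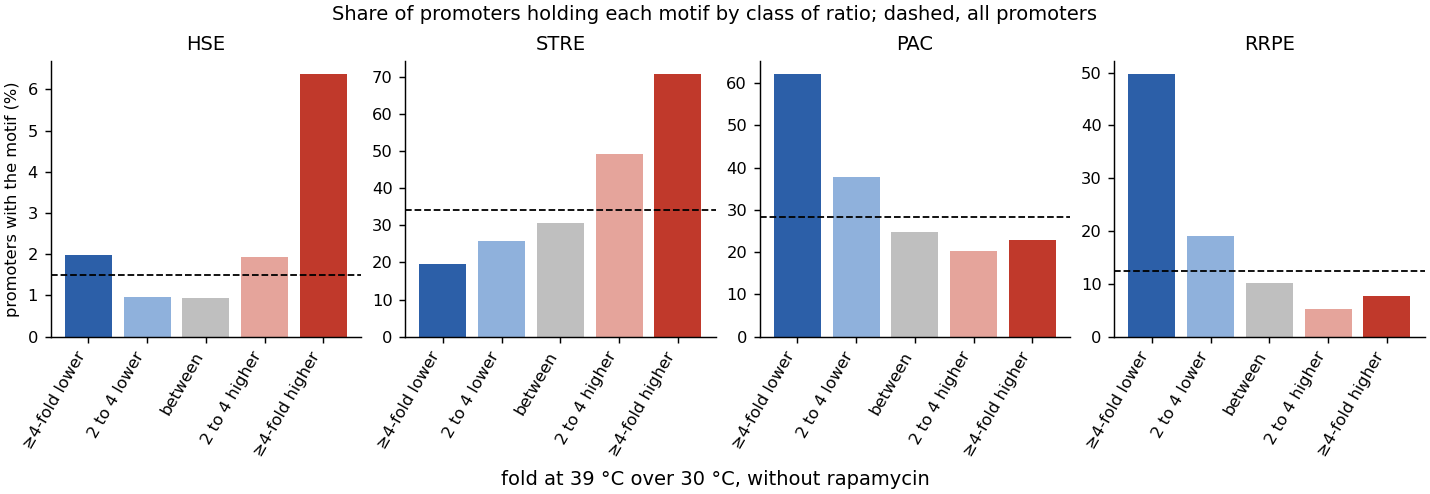
Share of promoters (percent, vertical axes, which differ in scale between panels) that hold each motif in the 500 bases before the start codon, by class of heat shock ratio from past 4-fold lower to past 4-fold higher. The dashed line in each panel is the share of all 5986 promoters. The stress response element climbs from 19.5% to 70.8% across the classes, and PAC and RRPE are highest in the class past 4-fold lower.

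Some other promoter motifs marked gene groups more than they marked the classes of ratio. PACE, GGTGGCAAA or TTTGCCACC, the site of the proteasome regulator Rpn4, stood in 81.8% of proteasome promoters against 1.64% of all, and the site of the amino acid regulator Gcn4, TGACTC or GAGTCA, in 71.2% of amino acid synthesis promoters against 12.7%. The cell cycle box ACGCGT stood in 54.3% of DNA replication promoters against 5.43%. In the class past 4-fold higher their shares were 1.89%, 12.7% and 3.54%, and in the class past 4-fold lower 0.565%, 12.4% and 4.52%. The share of ACGCGT was largest between 2-fold and 4-fold lower, at 7.22%. CGCGAAA or TTTCGCG stood in 2.83% of promoters past 4-fold higher and 5.83% of all. Its share was 9.72% between 2-fold and 4-fold lower and 6.78% past 4-fold lower. The Rap1 motif searched stood in 1.18% past 4-fold higher, 2.54% past 4-fold lower and 0.936% of all. TATAAA or TTTATA was found in 67.2% of promoters past 4-fold higher, 55.1% of those past 4-fold lower and 60.5% of all.

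The 2 rapamycin libraries gave a second reading of heat that shares no library with the first. In them 1034 features were past 2-fold higher (18.3%) and 825 past 2-fold lower (14.6%), and past 4-fold the counts were 356 (6.31%) and 205 (3.63%). Both readings placed 723 features past 2-fold higher, 64.8% of the 1115 here and 69.9% of the 1034 there. Both placed 621 past 2-fold lower, 57.0% of the list here and 75.3% of the list there. Of the 443 features past 4-fold higher without rapamycin, 377 (85.1%) were past 2-fold higher with it, at a median ratio of 2.16 against 2.88. Of the 361 past 4-fold lower, 314 (87.0%) were past 2-fold lower with rapamycin, at a median of -1.90 against -2.68. Passing 2-fold in opposite directions were 13 features that were higher here and 11 that were lower here. The difference between the 2 readings was not tested.

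Genes in the class above 4-fold differed in their rapamycin ratio by promoter motif. The 15 with the strict heat shock element and no stress response element had a median of 3.26 without rapamycin and -0.23 with it, and 2 of the 15 (13.3%) were past 2-fold higher with it. The 288 with the stress response element and no heat shock element had medians of 2.89 and 2.36, and 265 of them (92.0%) were past 2-fold higher with rapamycin. The 12 with both motifs had medians of 3.98 and 2.56, and 11 of them were past 2-fold higher with it. Of the 109 with neither, 83 (76.1%) were. These differences were not tested, and a match does not show that a factor binds there.

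**Figure D3:**
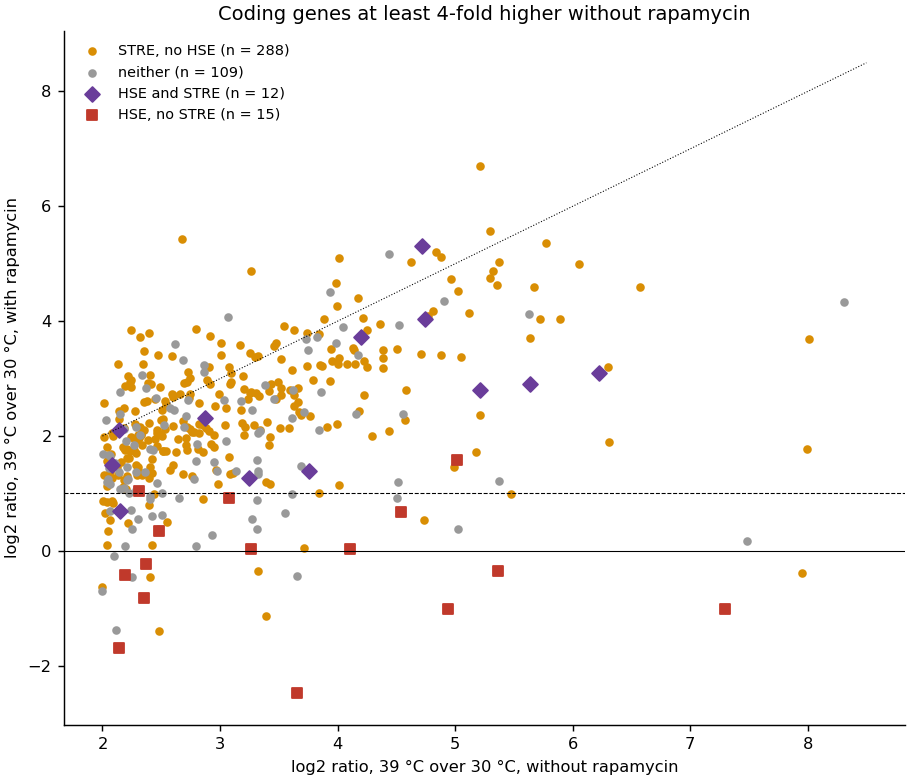
Log2 ratio of 39 °C over 30 °C with rapamycin (vertical axis) against the ratio without it (horizontal axis) for the 424 coding genes past 4-fold higher without rapamycin, 1 library per condition, marked by the motifs in their promoter; the dashed line is 2-fold with rapamycin and the dotted line marks equal ratios. Of the 15 genes with the heat shock element alone 2 lie above the dashed line, and of the 288 with the stress response element alone 265 do. SSA4 (7.95 and -0.39) and BTN2 (7.30 and -1.02) lie at the lower right.

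The cytosolic Hsp70 system, 15 genes for Hsp70s, their J-domain partners and their nucleotide exchange factors, went from 0.738% to 5.96% of coding reads. Of its members 10 were past 2-fold higher and 2 past 2-fold lower, with a median of 2.35. Beside SSA4, the exchange factor gene FES1 went from 193 to 5946 (30.7-fold, 25.9 to 36.8), the J-domain gene APJ1 from 62.9 to 1703 (26.7-fold, 20.04 to 37.5), SIS1, an essential J-domain gene, from 417 to 9733, and the Hsp110 gene SSE2 from 113 to 2237 (19.6-fold, 15.8 to 25.2). In the rapamycin libraries FES1 read 169.7 and 83.6 and APJ1 read 39.98 and 58.6 at the 2 temperatures. DJP1, a J-domain protein of peroxisomal import, was the member lowest in ratio, at 94.4 from 253 (2.66-fold lower, 1.999 to 3.63).

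The Hsp90 group, 13 genes, went from 0.575% to 4.11% of coding reads, with 7 members past 2-fold higher and 2 past 2-fold lower. The higher ones were both Hsp90 genes, STI1, which bridges Hsp70 and Hsp90 (783 to 13478), the prolyl isomerase gene CPR6 (518 to 6528), the ATPase activators AHA1 (546 to 2499) and HCH1 (244 to 1120), and CDC37, which loads kinases (274 to 603). TAH1, of the R2TP complex that assembles box C/D particles, was lower, at 25.5 from 80.1, and so was the co-chaperone gene CNS1, at 42.0 from 88.6. None of the 13 passed 2-fold either way in the rapamycin libraries, but HSP82 fell just short of it, at a ratio of 0.996. HSC82 had a ratio of -0.46 there. The 5 genes of the disaggregase, small heat shock protein and sequestrase group went together from 0.128% to 5.40% of coding reads, with HSP104 alone at 54770 from 1473.

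Chaperones tied to translation went the other way. Of 7 ribosome-associated genes 3 were past 2-fold lower and none higher (median -0.93), the Hsp70 genes SSB1 (3790 to 532) and SSB2 (1844 to 328) and ZUO1 (1142 to 331). The chaperonin CCT and prefoldin, which fold actin and tubulin, had 7 of 14 genes past 2-fold lower and none higher (median of about -1). Dedicated chaperones that escort single ribosomal proteins had 7 of 8 genes past 2-fold lower, led by SYO1 (207 to 13.5) and BCP1 (243 to 23.99). The exception was YAR1, the escort of Rps3, which went from 117 to 1241 (10.5-fold higher, 8.43 to 13.5) and shares its upstream region with HSP82. With rapamycin YAR1 went from 183.9 to 83.6.

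Folding genes of other compartments moved unevenly. Beside them, 19.8% of all features were past 2-fold higher and 19.3% past 2-fold lower. In mitochondria 5 of 16 chaperone and protease genes were past 2-fold higher and 1 lower, a list whose median of 0.28 was -0.15 on library totals. Its share of coding reads went from 0.481% to 2.22%, and the members past 2-fold higher were HSP78, SSC1 (2505 to 6817), HSP60 (1245 to 6430), HSP10 (219 to 2109) and MDJ1 (297 to 3132). In the endoplasmic reticulum 4 of 16 folding genes were past 2-fold higher (median 0.59), near the share of all features. On library totals 4 were higher and 2 lower, with a median of 0.14. KAR2, the Hsp70 of that compartment, went from 1997 to 16810, ERO1, the disulfide oxidase gene, from 209 to 2026, and MPD1, of the disulfide isomerase family, from 40.03 to 450, while HAC1, the gene of the unfolded protein response factor, went from 1747 to 2441, 1.40-fold.

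**Figure D4:**
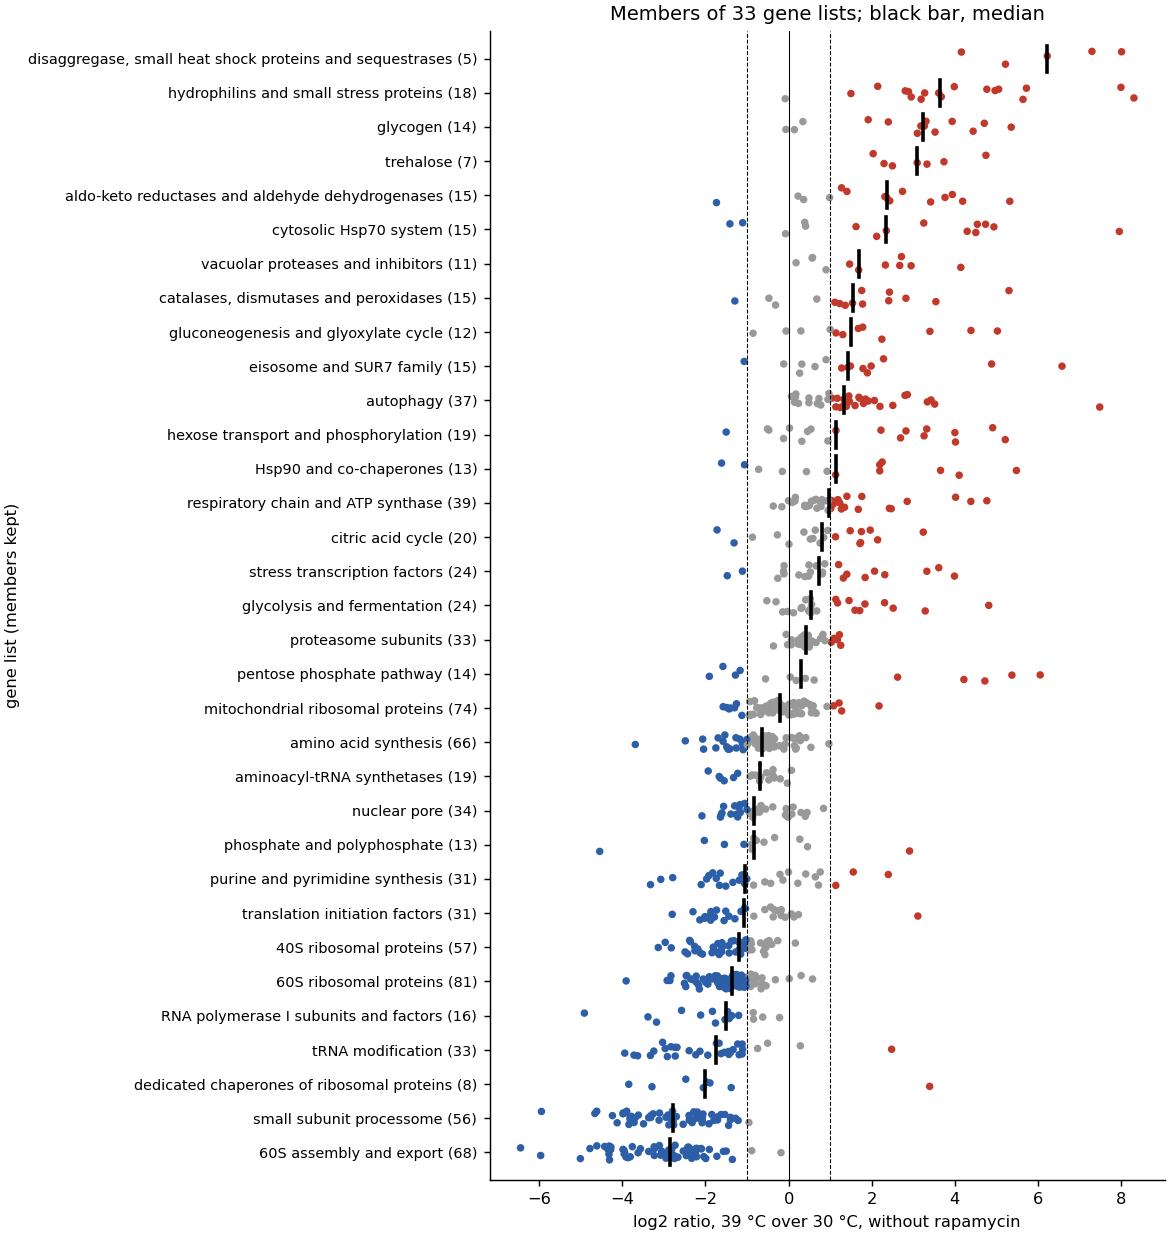
Log2 ratio of 39 °C over 30 °C for the members kept of 33 gene lists (horizontal axis), 1 point a gene, from 1 library a side, with the list median as a black bar, dashed lines at 2-fold and the number of members in brackets. Of the small subunit processome 55 of 56 points lie beyond the lower line, and all 7 trehalose genes lie beyond the upper line.

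The largest ratios among protein disposal genes lay outside the proteasome subunits. Of the 33 proteasome subunit genes 30 had a ratio above 0 and 5 were past 2-fold higher (median 0.42), and on library totals the median was -0.03 with none past 2-fold, although RPN4, the gene of their transcription factor, went from 224 to 1120. In the ubiquitin and quality-control list 11 of 34 were past 2-fold higher and 3 lower (median 0.47). On library totals 7 were higher and 5 lower, with a median of 0.02. UBI4, the polyubiquitin gene, went from 563 to 7615 (13.5-fold, 12.2 to 15.0), TMC1, a zinc finger protein that meets the proteasome, from 114 to 1430, and HRD1, the ubiquitin ligase of the endoplasmic reticulum, from 41.5 to 244. ROQ1, whose product retargets the ligase Ubr1, went from 3 reads to 279. SAN1, the nuclear quality-control ligase gene, was 2.32-fold lower (1.71 to 3.23), at 87.0 from 203.

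Autophagy genes were higher as a class. Of 37 genes 24 were past 2-fold higher, none was past 2-fold lower and all 37 had a ratio above 0 (median 1.33, and 0.92 with 17 past 2-fold on library totals). ATG8, the ubiquitin-like protein that coats the autophagosome, went from 12.9 to 157 (11.4-fold, 6.20 to 27.5), the selective receptor genes ATG34, ATG39 and ATG40 from 8.58 to 102.0, 15.7 to 115 and 21.4 to 102.0, and ATG14, of the lipid kinase complex, from 4.29 to 52.5. ATG41 stood far above the rest, at 2225 from 11.4, and its ratio with rapamycin was 0.18, whereas that of ATG8 was 2.15. Vacuolar proteases and their inhibitors had 7 of 11 genes past 2-fold higher and none lower (median 1.69). The inhibitor gene TFS1 went from 70.1 to 1253 (17.7-fold), and the inhibitor genes PBI2 and PAI3 from 51.5 to 403 and from 7.15 to 51.0, beside the protease genes APE1 (127 to 840), PRB1 (513 to 2580), PRC1 (698 to 2246) and PEP4 (457 to 1267).

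Storage carbohydrate genes were higher, with no member of either list past 2-fold lower. All 7 trehalose genes were past 2-fold higher (median 3.09), both those that make the sugar, TPS1 (520 to 5235), TPS2 (545 to 7272) and the regulator TSL1 (460.4 to 12376), and those that break it down, NTH1 (455 to 2570), NTH2 (164 to 676) and ATH1 (64.3 to 556). In the glycogen list 11 of 14 were past 2-fold higher (median 3.22), again on both sides: the synthase genes GSY1 (109 to 937) and GSY2 (277 to 1466), the branching enzyme gene GLC3 (107 to 1243), the phosphorylase gene GPH1 (217 to 5700) and the debranching gene GDB1 (120 to 1195). GAC1, which brings the phosphatase to glycogen synthase, went from 17.2 to 393. With rapamycin the list medians were 2.69 and 2.76.

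Genes for sugar entry and carbon use were unevenly higher. HXT5, a hexose transporter of slow growth, went from 21.4 to 831 (37.0-fold, 23.3 to 69.7), HXT7 from 133 to 865 and HXT2 from 396 to 1850, while HXT1, the low-affinity transporter of high glucose, went from 189 to 66.0. HXK1 went from 643 to 10411 and the glucokinase GLK1 from 592 to 5672. In the gluconeogenesis and glyoxylate list 8 of 12 members kept were past 2-fold higher (median 1.49), among them MDH2, the cytosolic malate dehydrogenase gene (7.15 to 169), CIT2 (252 to 1195) and the regulator CAT8 (15.7 to 175). PCK1, the key gluconeogenic gene, was at 39.0 from 17.2. SIP4, a partner of CAT8, went from 2 reads to 83 and had a ratio of 0.39 with rapamycin. The citric acid cycle had 8 of 20 genes past 2-fold higher and 2 lower (median 0.80), with CIT1 from 283 to 2681. Respiratory chain genes had 19 of 39 past 2-fold higher and none lower (median 0.96, and 0.52 with 8 past 2-fold on library totals), led by genes for alternative parts, CYC7, NDE2 and NDI1 (177 to 1286), and STF2, which holds the inhibitor on the ATP synthase (51.5 to 1429).

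Abundant glycolytic genes moved little as a share: the list of 24 took 8.62% of coding reads at 30 °C and 8.70% at 39 °C. The 10 members past 2-fold higher were mostly minor isoforms and regulators, with GPM2 (10.01 to 309), TDH1 (95.8 to 943), PYK2 (78.6 to 454) and FBP26 (60.05 to 301) ahead of the major genes PGK1 (9896 to 22396) and ADH1 (5762 to 12649). Glycerol genes had 6 of 10 kept members past 2-fold higher and 1 lower (median 1.67), including GPD1 (395 to 2384), the first committed step, and GCY1 (78.6 to 1220).

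Both members were compared in 44 pairs of related genes, written with the stress-type member first where 1 is known. In 21 pairs the first was past 2-fold higher and the second not, and in 13 both were. In 3 of the 21 the second was past 2-fold lower. The 2 ratios differed by at least 2-fold in 31 pairs and by at least 4-fold in 19. Over all features 19.8% were past 2-fold higher and 19.3% past 2-fold lower. Pairs of unrelated genes were not counted, so whether related genes part more often than others was not tested. SSA2 stands in more than 1 pair. In the pentose phosphate pathway, which supplies NADPH, the abundant gene of each pair given here moved less than 2-fold or was lower, while its rare partner was higher. GND2 went from 18.6 to 516 beside GND1 (2924 to 3318), SOL4 from 21.4 to 928 beside SOL3 (459 to 312), NQM1 from 14.3 to 283 beside TAL1 (1052 to 1391), and TKL2 from 12.9 to 919 beside TKL1 (2002 to 891). The share of TKL2 in its pair went from 0.638% to 50.8% on values per kilobase.

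Other pairs parted in the same way. PGM2, the major phosphoglucomutase of stress, went from 192 to 7874 and PGM1 from 237 to 301. CYC7, the minor cytochrome c gene, went from 47.2 to 1005 and CYC1 from 433 to 432. ALD3 went from 44.3 to 1810 and ALD2 from 34.3 to 69.0. At the plasma membrane FMP45 went from 44.3 to 1336 while SUR7, its relative in the eisosome, went from 432 to 205. The glycerol phosphatases also moved in opposite directions, with GPP2 from 123 to 459 and GPP1 from 1159 to 510, although GPP1 remained the higher. Not every pair parted. The glutaredoxin genes GRX1 and GRX2 had ratios of 2.04 and 2.08. SAM1 (882 to 184) and SAM2 (539 to 360) parted downward, and so did RNR1 (1368 to 205) from RNR3 (18.6 to 30.0).

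**Figure D5:**
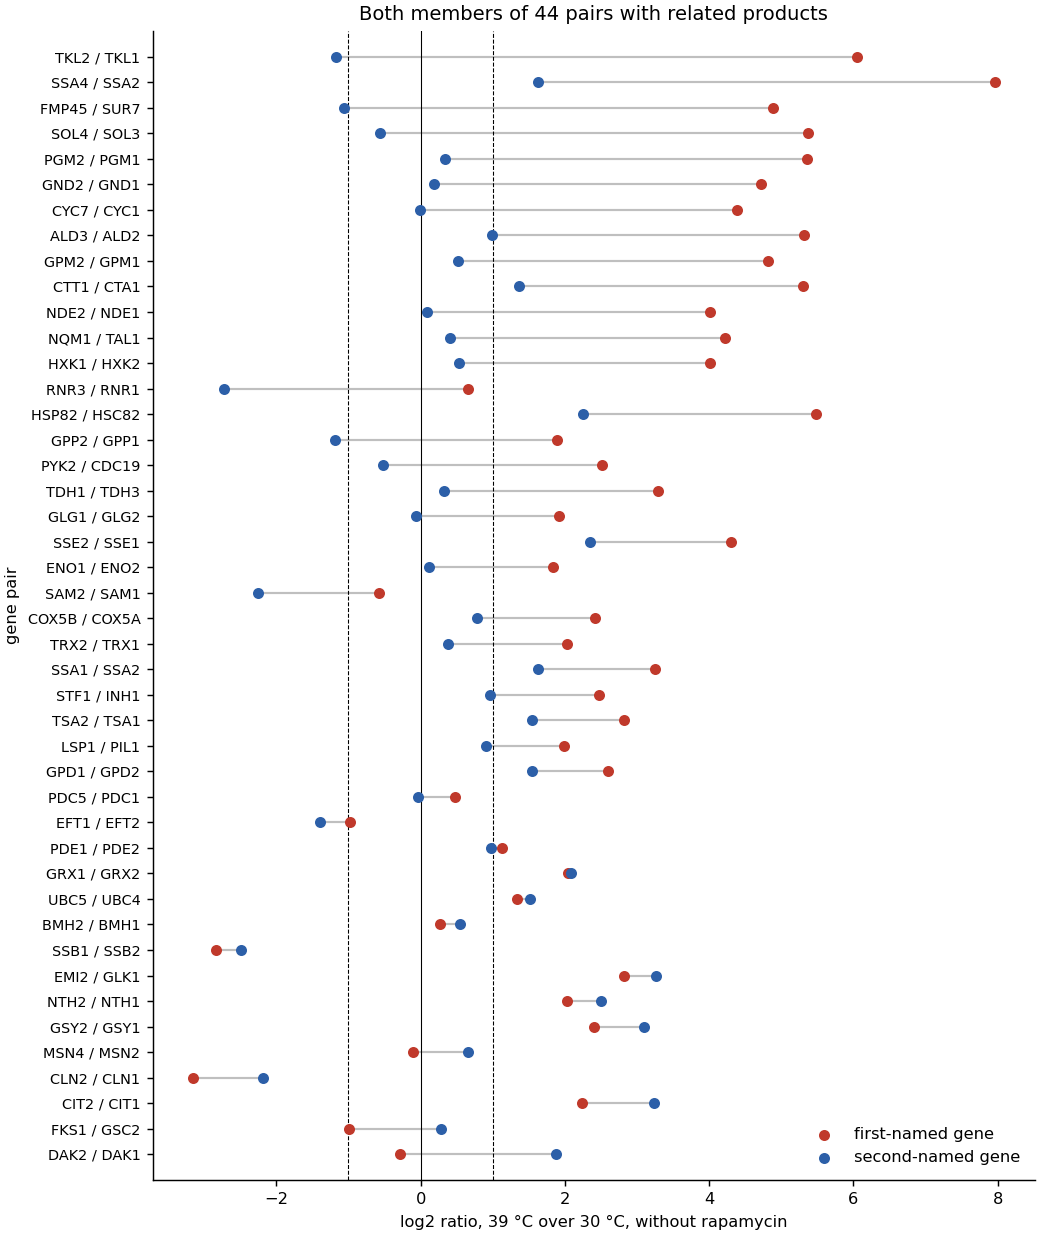
Log2 ratio of heat shock over 30 °C for both members of each of 44 pairs of related genes (horizontal axis), the first-named in red and the second in blue, joined by a line, from 1 library a side. In 19 pairs the 2 members lie at least 4-fold apart, TKL2 (6.05) and TKL1 (-1.17) among them.

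Antioxidant genes are given in 2 lists, between which no difference was tested. Catalases, dismutases and peroxidases had 11 of 15 genes past 2-fold higher and 1 lower (median 1.54). CTT1, the cytosolic catalase gene, went from 124 to 4942, the glutathione peroxidase gene GPX1 from 11.4 to 144, the peroxiredoxin gene AHP1 from 759 to 4083 and SOD2, the mitochondrial dismutase gene, from 337 to 1160. Thioredoxin and glutathione genes had 6 of 23 past 2-fold higher and 3 lower (median 0.48), beside 19.8% and 19.3% of all features. On library totals 4 were higher and 3 lower, with a median of 0.05. GSH1, for the first step of glutathione synthesis, was 2.09-fold lower (1.57 to 2.83), at 103 from 217. Aldo-keto reductases and aldehyde dehydrogenases, which clear reactive carbonyls, had 11 of 15 past 2-fold higher and 1 lower (median 2.36), with GRE3 from 193 to 3531 and ALD4 from 123 to 1681. The lower one was ALD5, at 123 from 412.

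Hydrophilins and other small stress proteins included the gene of highest ratio, HSP30. Of 21 genes 18 were kept, 17 of them past 2-fold higher and none lower (median 3.64, and 2.45 with rapamycin). They went from 0.222% to 2.45% of coding reads. HSP30, which restrains the proton pump Pma1, went from 38.6 to 12533 (317-fold, 223 to 493), MSC1 from 87.2 to 2927, RTC3 from 57.2 to 2897 and DDR2 from 22.9 to 745. PMA1 itself was at 15990 from 20733, a ratio of -0.37.

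Cell wall genes were past 2-fold about as often as all features, of which 19.8% were higher and 19.3% lower. Of 32 kept cell wall genes 4 were past 2-fold higher and 8 past 2-fold lower (median -0.04), and on library totals 4 and 12 of 33. SPI1 went from 22.9 to 1879, YGP1 from 216 to 1586 and TIP1 from 170.1 to 951, while SCW11, a daughter-cell glucanase gene, went from 386 to 49.5, EXG1, the major exoglucanase gene, from 1265 to 229, and CHS2, for the chitin of the division septum, from 337 to 109. In the cell wall integrity pathway, 4 of 20 were past 2-fold higher and 5 lower, also near those shares, a list whose median of 0.39 was -0.05 on library totals. Phosphatase genes of this list moved both ways, SDP1 (12.9 to 171) and PTP2 (68.6 to 184) against PTP3 (140.1 to 21.0) and MSG5 (57.2 to 25.5). Eisosome genes, for furrows in the plasma membrane, had 9 of 15 past 2-fold higher and 1 lower (median 1.43), with YNL194C from 8.58 to 913, NCE102 from 523 to 2552 and LSP1 from 529 to 2097.

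Membrane lipid and transport genes included both higher and lower members. The ceramidase genes YPC1 (87.2 to 664) and YDC1 (65.8 to 381), RSB1, a long-chain base transporter gene (17.2 to 240), and ORM2, the inhibitor of sphingolipid synthesis (74.3 to 399), were higher. The synthetic genes LCB1 (340 to 118), TSC10 (144 to 48.0) and AUR1 (194 to 46.5) were lower, and the 23 genes together had 6 higher, 3 lower and a median of -0.26, with 6 higher and 8 lower on library totals. Sterol, fatty acid and phospholipid synthesis had 7 of 39 past 2-fold lower, near the 19.3% of all features, and 1 higher, INO1 (32.9 to 139). On library totals 15 were lower and 1 higher, and the median went from -0.10 to -0.55. Pumps and permeases had 6 of 32 higher and 8 lower, near the 19.8% and 19.3% of all features. Among them TPO4, a polyamine exporter, went from 120.1 to 2486 and ENA1, the sodium pump, from 21.4 to 187, against the purine-cytosine permease FCY2 (741 to 64.5) and the amino acid permeases BAP3 (409 to 74.96) and TAT1 (573 to 151). PHO84, the high-affinity phosphate carrier gene, went from 792 to 32.98 (23.3-fold lower, 15.7 to 38.6). Iron genes moved both ways, 10 of 21 past 2-fold higher and 7 lower, and 5 higher and 8 lower on library totals, with FRE1 (322 to 61.5) and FTR1 (423 to 115) low and CTH1 (81.5 to 379), which directs decay of iron-using messages, high.

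Genes of regulators included higher and lower members. HSF1 went from 157 to 288, MSN2 from 126 to 199 and MSN4 from 194 to 180, none past 2-fold. Of 24 stress transcription factor genes 9 were past 2-fold higher and 2 lower (median 0.74). CIN5 went from 50.04 to 810 (15.9-fold, 11.5 to 23.5), XBP1, a repressor of stress and quiescence, from 18.6 to 238, MGA1 from 25.7 to 267 and NRG2, a glucose repressor gene, from 45.8 to 166. Of 41 metabolic factors 8 were past 2-fold higher and 7 lower, near the shares of all features, and their median of 0.14 was -0.30 on library totals. Among them TYE7, an activator of glycolytic genes, went from 48.6 to 580 with a ratio of 0.66 with rapamycin, while BAS1, the activator of purine genes, went from 144 to 9 (14.5-fold lower, 7.12 to 44.8) and the glucose repressor MIG2 from 34 reads to 2. Of 12 factors of growth genes 1 was past 2-fold higher and 3 lower, among them TOD6, a PAC-binding repressor gene, which went from 162 to 15.0.

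Genes of the Ras and protein kinase A pathway and nutrient kinases had 15 of 36 past 2-fold higher and 5 lower (median 0.85). On library totals 9 were higher and 7 lower, with a median of 0.41. On the higher side were RAS2 (243 to 1090), the kinase A subunit gene TPK2 (77.2 to 379), the antagonist kinase YAK1 (176 to 831) and IRA2, the Ras brake, which went from 815 to 6235 (7.64-fold, 7.01 to 8.37) and from 864 to 1048 with rapamycin. RAS1 (103 to 22.5), TPK3 (132 to 37.5) and SCH9 (422 to 121) were lower. LST8, a TOR complex subunit gene, went from 87.2 to 3625 and from 94.2 to 74.0 with rapamycin. CMK2, a calmodulin kinase gene (78.6 to 1274), and RCN2, a calcineurin regulator gene (44.3 to 652), led the calcineurin and HOG list, in which 4 of 21 were past 2-fold higher and 2 lower, against 2 higher and 4 lower on library totals.

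Genes of ribosome assembly were lower almost without exception. In the small subunit processome 55 of 56 genes were past 2-fold lower (median -2.79), and in large subunit assembly and export 66 of 68 (median -2.84), with none higher in either. PAC stood in 87.5% and 88.2% of their promoters and RRPE in 75% and 79.4%. Processome genes went from 1.37% to 0.173% of coding reads and large subunit assembly genes from 1.49% to 0.215%. After NSR1 the processome list was led by UTP4 (465 to 18.0), the methyltransferase gene NOP1 (981 to 51.0) and UTP14 (330 to 18.0), and FYV7 had 17 reads at 30 °C and none at 39 °C, which makes it lower by a factor of at least 5.40 when the absent count is set to the 3-read floor. RRP5, which serves both subunits, went from 1388 to 328, 4.22-fold lower (3.65 to 4.92).

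The enzymes that supply ribosomal and transfer RNA were lower too, in unequal measure. RNA polymerase I genes were past 2-fold lower in 12 of 16 cases (median -1.50), led by RPA12 (52 reads to 1), RPA43 (182 to 16.5) and RPA49 (239 to 25.5). RNA polymerase III genes were lower in 10 of 22 cases (median -0.61), with RPC19 and RPC40, which are shared with polymerase I, at 10.5 from 106 and 103 from 303. RNA polymerase II and its general factors moved less, 5 of 41 lower and 1 higher (median -0.34). Enzymes of transfer RNA modification were lower in 29 of 33 cases (median -1.74), including DUS3 (199 to 11.99), TRM2 (160.1 to 11.99), NCL1 (595 to 58.5) and PUS1 (207 to 21.0). PAC stood in 66.7% of their promoters. TAD2, the deaminase subunit gene that makes inosine in the anticodon, was the 1 member past 2-fold higher, at 132 from 22.9.

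Ribosomal protein genes were lower by less. Of 57 small subunit genes 42 were past 2-fold lower (median -1.20) and of 81 large subunit genes 60 (median -1.36), with none higher, and as a share of coding reads they went from 6.36% to 1.96% and from 8.90% to 2.93%. PAC was present in 22.8% and 22.2% of their promoters, below the 28.3% of all promoters. Those with an intron were past 2-fold lower in 71 of 90 cases (median -1.42) and those without in 31 of 48 (median -1.18). RPL22B (172 to 10.5), a minor isoform gene, was lower than any other large subunit gene. Mitochondrial ribosomal protein genes had 7 of 74 lower, 4 higher and a median of -0.20, and on library totals 21 lower, 1 higher and a median of -0.64.

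Translation factors followed the ribosome with named exceptions. Of 31 initiation factor genes 17 were past 2-fold lower (median -1.06), led by TIF4631, for the scaffold eIF4G (2053 to 294), NIP1 (1082 to 219) and PAB1, for the poly(A)-binding protein (2771 to 630). DBP1, the low-abundance relative of the helicase gene DED1, went from 4 reads to 38. Of 19 elongation and termination genes 8 were lower, and 2 higher. The lowest ratios were those of SUP45, a release factor gene (1014 to 171), RLI1, of ribosome recycling (713 to 123), and SUP35, the other release factor gene (1205 to 219), and the abundant elongation gene YEF3 went from 16707 to 4924. ZPR1, which helps fold the elongation factor eEF1A, went from 486 to 6128 (12.6-fold higher, 11.3 to 14.1) and from 385 to 68.2 with rapamycin. Aminoacyl-tRNA synthetases were lower in 6 of 19 cases and higher in none (median -0.70), with FRS2 at 186 from 713.

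Among genes that supply building blocks, more were past 2-fold lower than higher. Purine and pyrimidine synthesis had 17 of 31 genes past 2-fold lower and 3 higher (median -1.06). URA7, the CTP synthase gene (849 to 84.0), IMD4, of guanine nucleotide synthesis (981 to 115), and PRS1, for phosphoribosyl pyrophosphate (628 to 90.0), led, while ADE17 (60.05 to 178), ADE16 (465 to 1021) and the minor isoform URA10 (8.58 to 49.5) were higher. AAH1, the adenine deaminase gene, was at 10.5 from 186. Amino acid synthesis had 21 of 66 lower and none higher (median -0.64), with the branched-chain genes ILV5 (2563 to 198), ILV3 (2360 to 562) and LEU9 (475 to 84.0) lowest. The methionine cycle had 6 of 16 lower (median -0.64), with SAM1 and MET6 (1698 to 414) in front. Genes for use of poor nitrogen sources went the other way in part, 10 of 28 higher and 2 lower, a median of 0.44 that was 0 on library totals to 2 decimals. Arginine and proline breakdown stood at their top, CAR1 (82.9 to 567), CAR2 (51.5 to 351) and PUT1 (37.2 to 397).

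Among cell cycle genes, too, more were past 2-fold lower than higher. Of 21 G1 and S phase regulators 8 were past 2-fold lower and 1 higher (median -0.82), with FAR1, the pheromone arrest inhibitor gene (336 to 27.0), CLN2 (154 to 16.5), CLN1 (133 to 28.5) and PCL1 (65.8 to 9). In mitosis and early G1, 12 of 38 were lower and 1 higher (median -0.57), with FKH1 (167 to 34.5), HOF1, for cytokinesis (113 to 23.99), CLB1 (213 to 52.5) and SWI5 (234 to 58.5). The member past 2-fold higher was the checkpoint kinase gene BUB1, at 261 from 65.8 and with a ratio of -0.36 with rapamycin. DNA replication genes were lower in 14 of 46 cases and higher in 2 (median -0.50), led by RNR1 and MCM7 (363 to 61.5). Pheromone response genes were lower in 9 of 17 cases and higher in 2 (median -1.07), with STE12, their transcription factor gene, at 21.0 from 169. Nuclear pore and transport genes had 14 of 34 lower and none higher (median -0.82), KAP123, an importer of ribosomal proteins, among them (1535 to 492).

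Several housekeeping groups had few members past 2-fold on the deposited scale. Core histones, HTZ1 and HHO1 had 1 of 10 genes past 2-fold lower, vacuolar ATPase 1 of 15, and the coats of the secretory pathway 1 of 26 lower and 1 higher. ACT1 was at 3736 from 3820 (-0.03), ALG9 at 162 from 142 and TAF10 at 81.0 from 154. The actin list had 4 of 30 higher and 2 lower, and its median of 0.24 was -0.21 on library totals, where none was past 2-fold higher and 3 lower. Mediator, which bridges activators and polymerase, had 3 of 25 higher and 2 lower (median 0.02), smaller shares than those of all features, and on library totals it had 1 higher and 7 lower (median -0.42). SSN3 went from 57.2 to 144 and SSN8 from 35.7 to 95.9, both of its kinase module.

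Small nucleolar RNAs were higher, unlike the genes of the proteins they work with. All 76 had a ratio above 0, between 0.33 and 1.44 (median 0.92), and 34 were past 2-fold higher, but on library totals the median was 0.48 with 73 above 0 and none past 2-fold. As a share of all reads they went from 9.93% to 13.6%, while protein-coding genes went from 64.7% to 59.6% and transfer RNA from 14.3% to 13.8%. With rapamycin the small nucleolar RNA median was 0.09. The 29 transfer RNA features kept of 299 had a median of 0.44, which was -0.01 on library totals, against -0.98 with rapamycin. The RNA subunit of RNase MRP, which cuts ribosomal precursor RNA, went from 2848 to 6985, and that of the signal recognition particle from 112689 to 152069. The libraries were Illumina TruSeq libraries of total RNA, per the labels, which do not say how ribosomal RNA was removed or fragments were sized. The part of library making in these values was not tested.

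Among genes next to those of highest ratio, the share past 2-fold higher was largest for neighbours that shared the upstream region. Around the 50 coding genes with the highest ratios, 9 of 14 divergent neighbours (64.3%, median 1.53) were past 2-fold higher, against 6 of 19 convergent neighbours, 9 of 27 downstream and 7 of 29 upstream on the same strand, with a background of 19.8%. Among those 9, YOL085C (0 to 15.0) and PDC6 (4.29 to 13.5) rest on few reads. The gap between divergent genes ran from 341 to 1652 bases. LST8 and SIS1 were both higher (ratios of 5.36 and 4.54), and so were YNL194C with YNL193W (6.58 and 2.35) and HSP82 with YAR1 (5.48 and 3.39). TKL2 and TEF2 (6.05 and -0.35) and TMA10 and NMA1 (7.99 and 0.42) were not. Neighbours named here that belong to no list were chosen after their values were seen. Whether counting used strand is not given, so reads of a strong gene and those of an overlapping neighbour cannot be told apart.

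Position and length classes differed by less. Coding genes within 30 kb of a chromosome end were past 2-fold higher in 23.9% of 218 cases and lower in 17.9%, against 19.0% and 19.9% of the 5213 others. In 4 classes of coding length, from shortest to longest, 21.2%, 22.6%, 19.2% and 13.9% were past 2-fold higher, and the longest class, 1932 bases and over, had a median of -0.18. Genes with an intron that are not ribosomal protein genes were past 2-fold higher in 36 of 158 cases (22.8%) and lower in 17 (10.8%).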

How the data were processed

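RNA was measured in 4 libraries, 1 per condition, and the 2 without rapamycin are compared. Per the submitters' processing notes the tools were TopHat and HTSeq with build sacCer3; versions and settings are not stated there. The deposited table holds a signal, normalised read counts, made by the authors: within each library 100% of values were whole multiples of 1 step (tolerance 0.0055), which returned the reads. Log2 ratios used a pseudocount of 1, and features with a mean of 5 or more over the 4 libraries were kept. With 1 library a side the comparison of those 2 libraries gives no p-value, and 2-fold and 4-fold are rules of size. Intervals are exact 95% binomial intervals of the read ratio. A count test on the returned reads, edgeR's quasi-likelihood test with temperature and rapamycin as additive terms over all 4 libraries, was added after seeing the data. It has 1 residual degree of freedom, compares libraries rather than conditions, and called 1140 of 5642 features higher and 1090 lower at an adjusted p under 0.05.

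The members and the 75 gene lists were chosen with earlier results of these data known. Genes named are the 25 highest and 25 lowest ratios, a fixed set, the members with the largest changes in each list (every member of lists of 24 or fewer), paralog pairs and genes with a printed promoter; others are said to be chosen after their values were seen. A gene of these lists and its pair are not reported here. Symbols, promoters and sequences came from RefSeq R64, which matched 6159 of 7126 features. Alternatives were other scalings, pseudocounts and filters. Scripts were tested on simulated data. Python 3.11.15, numpy 2.4.6, pandas 2.3.3, SciPy 1.17.1, matplotlib 3.10.9, R 4.3.3, edgeR 4.0.16 and limma 3.58.1 were used.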

Additional observations from a re-analysis of the deposited data

Results flagged for a closer look

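For 8 named genes the ratio of heat shock over 30 °C had opposite signs without and with rapamycin, at 2-fold or more in both. The difference was not tested, since each condition was 1 library. BTN2 had a ratio of 7.30 without rapamycin and -1.02 with it. FES1 had 4.94 and -1.01. ZPR1 had 3.65 and -2.48. YAR1 had 3.39 and -1.13. YDJ1, a J-domain gene, had 2.12 and -1.38. COS5, of a subtelomeric family of near-identical genes, had 2.48 and -1.39 and only 3 reads in the 30 °C library. In the other direction YAP6, a transcription factor gene, had -1.11 without rapamycin and 1.15 with it, and SPS4, a sporulation gene at 7 reads or fewer in both libraries without rapamycin, had -1.0 and 1.10.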

How the results depend on the processing

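Scaling was the choice that moved the counts. On library totals the count of features at least 2-fold higher was 723, that of features at least 2-fold lower 1701 and that of features at least 4-fold lower 583. On the library total without the 20 highest features the same counts were 754, 1625 and 552. On protein-coding totals, a setting not planned beforehand, they were 815, 1512 and 510. Both of these scalings therefore also left fewer features higher than lower. Under every setting run other than library totals the 2-fold counts stayed within 1.5 times, but close to that limit without the 20 highest features. The median-of-ratios and TMM factors gave 1105 higher and 1096 lower. A pseudocount of 0.25 gave 1144 and 1101, and one of 5 gave 1040 and 1021. A filter at a mean of 1 gave 1268 and 1177, one at 20 gave 986 and 1021, and no filter 1354 and 1236. Library totals moved 43 of 75 list medians by more than the counting error of a single member, taken as the median over members. They moved 462 of 980 gene ratios by more than the gene's own counting error. The library total without the 20 highest features moved 39 list medians and 413 gene ratios, and protein-coding totals moved 25 and 320. Neither yardstick holds any spread between cultures. The median-of-ratios and TMM factors moved none. The deposited scaling was itself within 0.036% to 0.515% of median-of-ratios factors, so that setting repeats it and shows nothing of stability. No called ratio changed sign under any setting run, which was fixed beforehand and shows nothing of stability. The largest shift of the median of all features, on library totals, was -0.44, and a called ratio is at least 1 in size. Pseudocounts and filters cannot turn the sign of a ratio. No paired analysis was possible because the labels give no replicate numbers, with 1 library a group, and for the same reason no library could be left out. The count test with rapamycin as a term called 1140 features higher and 1090 lower. It fits 1 heat effect common to both rapamycin states and tests neither state alone. Its counts are therefore no check of the contrast without rapamycin. Counting error is wide for genes of few reads, such as RPF2 with 1 read at 39 °C.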
